A study of Mus musculus with 6 samples.

Results

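The 38 genes described here encode enzymes and transporters of central carbon metabolism: glucose uptake, glycolysis, lactate formation and export, pyruvate entry into mitochondria, the tricarboxylic acid (TCA) cycle and the pentose phosphate pathway. They were taken by symbol, with no threshold on their values, and all 38 were found among the 22057 genes of the deposited table. Each passed the filter on low values, a mean normalized count of at least 10 over the 6 libraries. RNA came from cultured neural progenitor cells of 3 mice, numbered 62, 68 and 69 and labelled p53-null, that is, lacking the tumour suppressor p53. The cells of each mouse spent 4 days in stem cell medium, either with epidermal growth factor (EGF), fibroblast growth factor (FGF) and heparin (the EF group, n = 3) or with platelet-derived growth factor A, given in the labels as 20 ug/ml, a high value for a growth factor whose unit could not be checked here (the PDGFA group, n = 3). The p53-null genotype is shared by both groups, and the labels do not name the allele or the age of the mice. The media differ by the removal of EGF, FGF and heparin and by the addition of PDGFA, so every comparison is of the 2 media.

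Glycolysis splits glucose into pyruvate and yields ATP and NADH. Pyruvate is then either reduced to lactate, which leaves the cell, or oxidised in mitochondria through the pyruvate dehydrogenase complex and the TCA cycle. The pentose phosphate pathway branches off after the hexokinase step and yields NADPH and ribose for nucleotides. Many steps exist as isozymes, products of separate genes with different kinetics and tissue distribution. In the nervous system Hk2, Ldha and Aldoa are often described in growing or strongly glycolytic cells, Hk1 is the general brain hexokinase, and Aldoc is a common marker of astrocytes.

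Values are normalized counts, the reads of a gene over the size factor of its library, and are given in the order of mice 62, 68 and 69. The libraries held 27270246 to 39601349 recovered reads, and even the least read of the 38 genes, Slc16a3, had 24 reads in its lowest library. A gene is called higher or lower in PDGFA when limma's adjusted p was under 0.05 (Benjamini-Hochberg, over 17068 genes tested). Fold changes are on the scale log2(normalized count + 1), PDGFA minus EF. Means are given ± SD (n = 3). The progenitor markers Nes, Sox2 and Vim were read in every library, with Nes at 21108 to 48051 in EF and 1600.2 to 3420 in PDGFA. Of 12 markers of dividing cells 12 fell in PDGFA, with a summed level of 53174 to 120982 in EF and 2533 to 2878 in PDGFA. Of 12 oligodendrocyte markers 12 rose, from a summed 2810 to 5332 in EF to 359420 to 440510 in PDGFA, with Mog at 0 in all EF libraries. Of 7 oligodendrocyte precursor markers 3 rose (Sox10, Gpr17 and C1ql1) and 3 fell (Cspg4, Olig1 and Olig2), with a summed 79136 to 146434 in EF and 125061 to 199915 in PDGFA. Within EF, mouse 68 stood apart in this list, with Gpr17 at 123, 3702 and 24.3 and Pdgfra at 861, 14133 and 533, and EF 68 was also the highest EF library for Slc2a1, Slc16a3, Aldoc and Hk1. Of 11 astrocyte markers 8 rose, from a summed 55547 to 96986 in EF to 266711 to 454547 in PDGFA. Of 8 tested neuron markers 2 rose and none fell, and the 2 microglia markers in the table summed to at most 44.7 in any library. RNA was taken from whole cultures, in which fewer cells of a type and less RNA per cell cannot be told apart, and the part of these cell types in the results below was not tested.

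Of the 38 genes 17 were called lower and 6 higher in PDGFA, and 15 were not called. Among all genes tested, 18.0% were called lower and 21.8% higher, or 39.8% in either direction. The lower genes included the main isozyme at most steps from phosphoglucose isomerase to lactate, the pyruvate dehydrogenase subunit Pdha1, pyruvate carboxylase Pcx and the TCA enzymes Cs, Idh2 and Idh3a. The 6 higher genes were Hk1, Pfkfb2, Aldoc, Ldhb, Pdk2 and Taldo1, of which all but Taldo1 have an isozyme among the 38. The median log2 fold change was -0.60 over the 38 genes and -0.01 over all genes tested. The groups did not overlap in 18 of the 38 genes that were lower and 8 that were higher, against 26.3% and 29.2% of all genes tested, or 55.5% in either direction. The count of lower genes was 11 without PDGFA 62 or PDGFA 68, and that of higher genes was 3 without any 1 of the PDGFA libraries and 4 without EF 69. Of the 23 calls, the 7 of Hk2, Aldoc, Tpi1, Pgk1, Ldha, Slc16a3 and Pdk2 held in all 21 alternatives run.

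**Figure D1:**
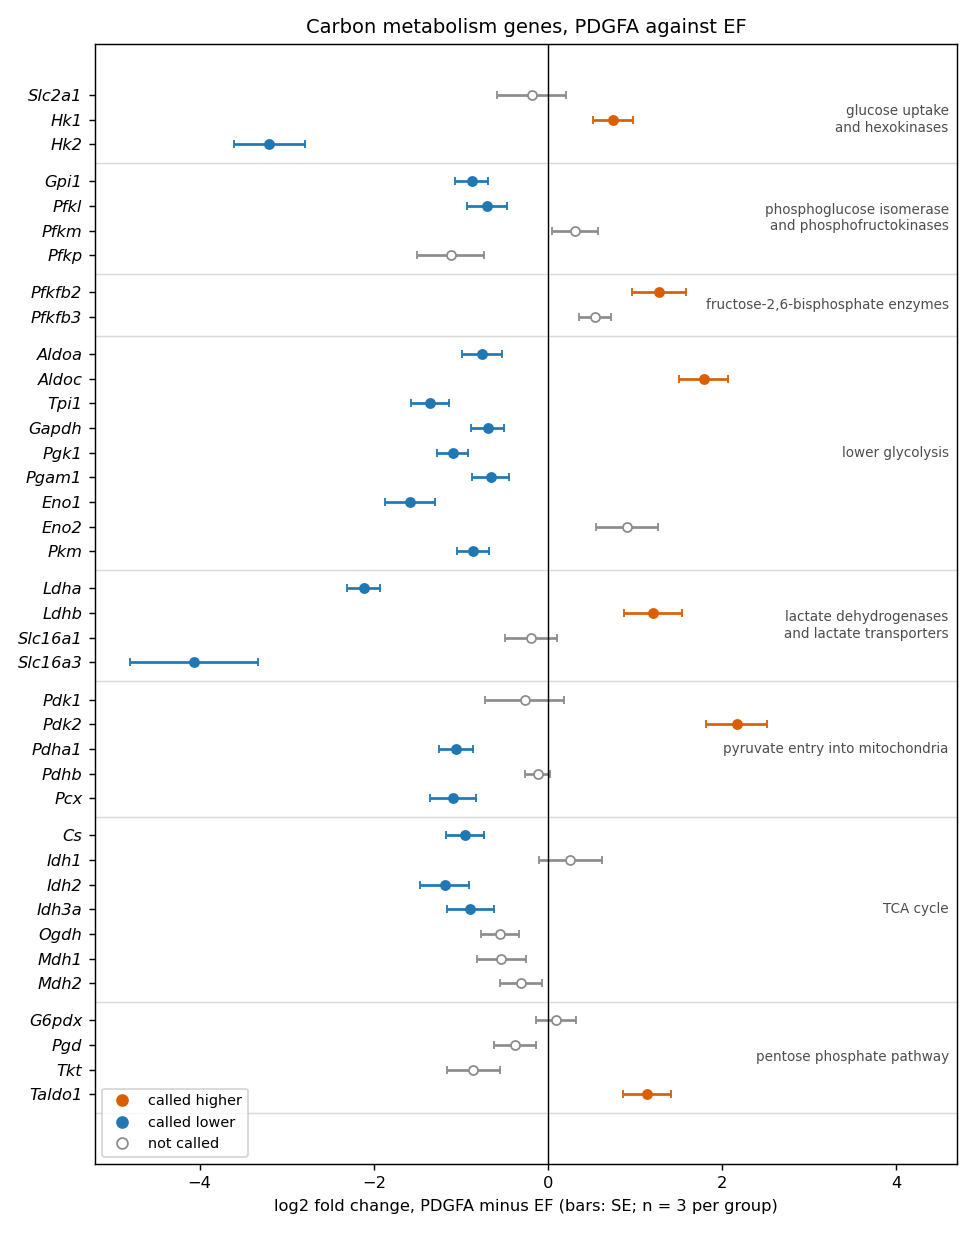
Log2 fold change of each of the 38 genes, PDGFA minus EF, with its SE (n = 3 per group), grouped by pathway; filled points were called at an adjusted p under 0.05. Lower glycolysis lies left of 0 apart from Aldoc and Eno2, and the largest fall and rise are Slc16a3 at -4.07 and Pdk2 at 2.17.

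At the entry of glycolysis, the hexokinases, which phosphorylate glucose and so trap it in the cell, moved in opposite directions. Hk2 (chromosome 6, 82725025 to 82774454), the inducible form, read 2345, 2013 and 2724 in EF and 429, 295 and 129.9 in PDGFA. Its mean was 8.29-fold lower in PDGFA (log2 fold change -3.20, SE 0.40, adjusted p = 0.000784), and the lowest EF library lay above the highest PDGFA library by a wide margin. Hk1 (chromosome 10, 62268855 to 62379908) read 3164, 5753 and 4106 in EF and 6758, 6364 and 8180.0 in PDGFA, 1.64-fold above EF on the means (log2 fold change 0.74, SE 0.23, adjusted p = 0.0358). All PDGFA libraries were above all EF libraries, but the EF library of mouse 68 came close to them, and Hk1 was not called when EF 62, EF 69 or any 1 of the PDGFA libraries was left out (adjusted p then 0.057 to 0.124; 0.00951 to 0.191 over all alternatives). Slc2a1, the GLUT1 glucose transporter, read 1295, 3413 and 1535 in EF and 1984, 2058 and 1123 in PDGFA, and the groups overlapped (log2 fold change -0.19, SE 0.39, adjusted p = 0.732). Leaving out EF 68, the library with the highest value, turned the log2 fold change to 0.24, and leaving out PDGFA 69 to 0.09, so no direction can be given for it.

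The steps from glucose 6-phosphate to fructose 1,6-bisphosphate were lower or not called. Gpi1, which turns glucose 6-phosphate into fructose 6-phosphate, read 12700.4, 18327 and 14004 in EF and 7157, 7948 and 9260.5 in PDGFA, without overlap (log2 fold change -0.88, SE 0.19, adjusted p = 0.00841). Phosphofructokinase, the committed step, is built from 3 kinds of subunit. Pfkl, the liver type, read 4333, 5316 and 2839 in EF and 2633, 2560.0 and 2256 in PDGFA and fell (log2 fold change -0.70, SE 0.23, adjusted p = 0.0443), a call that was lost when EF 62, EF 68 or any 1 of the PDGFA libraries was left out (adjusted p then 0.0862 to 0.138; 0.00381 to 0.245 over all alternatives), and also with TMM, upper-quartile or quantile scaling of the libraries. Pfkp, the platelet type, read 1447, 1469 and 2723 in EF and 619.6, 637 and 1434 in PDGFA. Every EF library was above every PDGFA library, though EF 62 and PDGFA 69 nearly met, and every mouse had less in PDGFA (log2 fold change -1.12, SE 0.38, adjusted p = 0.0516). It was called lower in the fit that blocked on mouse (adjusted p = 0.00353) and without PDGFA 69 (adjusted p = 0.0147; 0.00353 to 0.184 over all alternatives), and also by DESeq2 (adjusted p = 0.0257) and with quantile, total-read or upper-quartile scaling, but not by edgeR (adjusted p = 0.07). Pfkm, the muscle type, read 2638, 4492 and 2969.8 in EF and 3313, 3592 and 5612 in PDGFA, with overlap (log2 fold change 0.31, SE 0.27, adjusted p = 0.392).

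The bifunctional enzymes that make and remove fructose 2,6-bisphosphate, the strongest activator of phosphofructokinase, had higher values in PDGFA. Pfkfb2, known as the heart form, read 633, 411 and 256 in EF and 1044, 947 and 949.7 in PDGFA, 2.26-fold above EF on the means (log2 fold change 1.27, SE 0.31, adjusted p = 0.0151). It was not called when PDGFA 62 or PDGFA 69 was left out (adjusted p then 0.0502 to 0.0539; 0.00234 to 0.102 over all alternatives), and 19.5% of its exonic length overlaps exons of other genes, Yod1 among them, whose reads cannot be told apart with a kit that does not mark strand. Pfkfb3, whose kinase activity strongly exceeds its phosphatase activity, read 2207, 1693 and 1449.7 in EF and 2552, 2286 and 2835 in PDGFA; the groups did not overlap, but it missed the threshold (log2 fold change 0.54, SE 0.18, adjusted p = 0.0518). It was called with the filter at a mean of 50, and without EF 62, the highest EF library, its adjusted p was 0.00925 (0.00925 to 0.244 over all alternatives).

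Below the split of fructose 1,6-bisphosphate, 7 of 9 genes fell (77.8%), 1 rose (11.1%) and 1 was not called. Among all genes tested 18.0% were called lower and 21.8% higher. Aldoa (chromosome 7, 126795234 to 126800751) and Aldoc (chromosome 11, 78322968 to 78327781) encode aldolases A and C, which cut the 6-carbon sugar in 2. Aldoc read 3256, 7366 and 4124 in EF and 15474, 15577 and 16900.2 in PDGFA, 3.25-fold above EF on the means (log2 fold change 1.79, SE 0.28, adjusted p = 0.0023). The PDGFA libraries lay within a narrow band, and the highest EF library, that of mouse 68, had less than the lowest of them. Aldoa read 13696, 20846 and 23772 in EF and 10363, 10579.9 and 12795 in PDGFA and fell (log2 fold change -0.76, SE 0.23, adjusted p = 0.0335), a call lost when EF 68, EF 69 or any 1 of the PDGFA libraries was left out (adjusted p then 0.0603 to 0.117; 0.00305 to 0.237 over all alternatives).

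Tpi1, which interconverts the 3-carbon sugars, read 6434, 10082 and 7672 in EF and 2829, 2677 and 3921 in PDGFA, 2.57-fold below EF on the means (log2 fold change -1.36, SE 0.22, adjusted p = 0.00243). Eno1, the general enolase, read 8444, 16455 and 18196 in EF and 4633, 4134 and 4891 in PDGFA and was 3.16-fold lower (log2 fold change -1.58, SE 0.28, adjusted p = 0.00404). Pgk1, which makes the first ATP of the pathway, read 3250.3, 4919 and 4688 in EF and 1944, 1925 and 2051 in PDGFA (log2 fold change -1.10, SE 0.18, adjusted p = 0.00261). In each of these genes the groups were well apart, and none of the calls was lost when any single library was left out. Pkm, pyruvate kinase, had the highest mean normalized count of the 38 genes in both groups. It read 27556, 35595 and 35833 in EF and 20235, 17758 and 16390.4 in PDGFA (log2 fold change -0.86, SE 0.18, adjusted p = 0.00843). The table gives 1 value for Pkm, so its M1 and M2 splice forms were not told apart.

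Gapdh and Pgam1, the glyceraldehyde phosphate dehydrogenase and the phosphoglycerate mutase, fell by 0.69 and 0.66 on the log2 scale. Gapdh read 10708, 14445 and 16856 in EF and 8471, 8106 and 8994 in PDGFA (adjusted p = 0.0232) and was not called when EF 68 or any 1 of the PDGFA libraries was left out (adjusted p then 0.0599 to 0.0963; 0.00227 to 0.196 over all alternatives). GENCODE M21 holds 74 other genes with at least 95% identity over at least 50% of the Gapdh coding sequence, 48 of them in the table, so the level of Gapdh is uncertain; the next highest number among the 38 genes is 3, for Eno1. Pgam1 read 1149, 1992 and 1685 in EF and 1013, 991 and 977 in PDGFA (adjusted p = 0.0407), and lost its call in the fit that blocked on mouse (adjusted p = 0.0539) or when EF 68, EF 69 or any 1 of the PDGFA libraries was left out (adjusted p then 0.0874 to 0.119; 0.00255 to 0.276 over all alternatives). Eno2, the enolase of neurons, had higher values in PDGFA, 309, 297 and 149.6 in EF and 428, 335 and 638 in PDGFA, but was not called (log2 fold change 0.91, SE 0.36, adjusted p = 0.0802).

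In the lactate branch the 2 lactate dehydrogenase genes moved in opposite directions. Ldha (chromosome 7, 46841475 to 46855627), the M subunit of lactate dehydrogenase, read 11659.5, 16798 and 17934 in EF and 3445, 3254 and 3837 in PDGFA, 4.40-fold below EF on the means (log2 fold change -2.12, SE 0.19, adjusted p = 0.000165). Ldhb (chromosome 6, 142490249 to 142507957), the H subunit, read 1508, 3012 and 2310.1 in EF and 3485, 4918 and 7521 in PDGFA, 2.33-fold above EF on the means (log2 fold change 1.21, SE 0.34, adjusted p = 0.0249). Groups did not overlap for either gene, but Ldhb varied more between mice, from 3485 in mouse 62 to 7521 in mouse 69 within PDGFA, and it was not called when EF 62, EF 69, PDGFA 68 or PDGFA 69 was left out (adjusted p then 0.0513 to 0.0801; 0.0028 to 0.123 over all alternatives). Ldha was called in every alternative run.

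Slc16a3 (chromosome 11, 120948480 to 120960868), the monocarboxylate transporter MCT4 that exports lactate from glycolytic cells, had the largest change of the 38 genes. It read 757, 1492 and 215 in EF and 20.4, 32.5 and 71.7 in PDGFA, 19.8-fold below EF on the means (log2 fold change -4.07, SE 0.74, adjusted p = 0.00425). The EF libraries spread widely, with mouse 69 far below mouse 68, yet its lowest EF value was above the highest PDGFA value. Leaving out EF 68 gave a log2 fold change of -3.44, and leaving out EF 69 gave -4.83. Slc16a1, the widespread transporter MCT1, read 1629.9, 3485 and 3705 in EF and 2273, 2494 and 2472 in PDGFA (log2 fold change -0.20, SE 0.30, adjusted p = 0.637). The PDGFA values lay between EF 62 and the other EF libraries; without EF 62 it was called lower (log2 fold change -0.58, adjusted p = 0.00721; 0.00721 to 0.998 over all alternatives), and leaving out EF 69 turned its log2 fold change to 0.02.

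**Figure D2:**
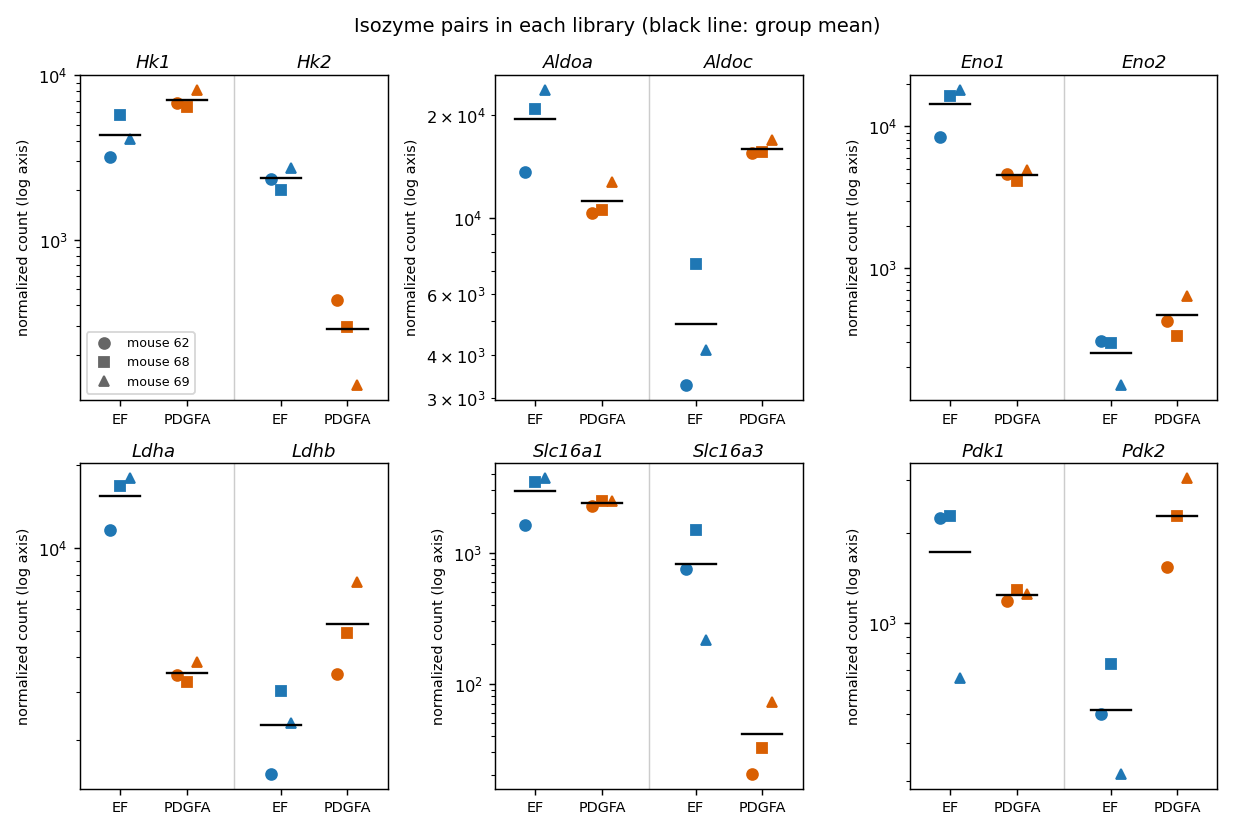
Normalized count (log axis) of 6 isozyme pairs in each library; symbols mark the mouse, blue is EF, orange is PDGFA and the black line is the group mean. Hk2, Ldha and Slc16a3 are lower in every PDGFA library than in every EF library, while Hk1, Ldhb, Aldoc and Pdk2 are higher.

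The DNA before the start sites is shown for the hexokinase and lactate dehydrogenase pairs, whose members moved apart. It is also shown for Slc16a3 and Pdk2, the largest fall and the largest rise. The aldolase pair, whose members moved apart as well, is not shown, but its matches are given below. Each sequence is the 250 bases before the first start that RefSeq's table (GRCm38.p6) lists for the gene, 5′ to 3′ on the gene's strand. Capitals mark ACGTG, a form of the core of the element bound by hypoxia-inducible factors, on either strand (CACGT on the opposite strand). The form GCGTG was not searched and is not marked. The palindrome CACGTG, the E-box bound by MYC and its relatives, holds the motif on both strands and counts as 2 matches. The windows are chr6:82774455-82774704, minus strand for Hk2, chr10:62379909-62380158, minus strand for Hk1, chr7:46845554-46845803, plus strand for Ldha, chr6:142507958-142508207, minus strand for Ldhb, chr11:120948817-120949066, plus strand for Slc16a3 and chr11:95041372-95041621, minus strand for Pdk2.
Hk2 promoter: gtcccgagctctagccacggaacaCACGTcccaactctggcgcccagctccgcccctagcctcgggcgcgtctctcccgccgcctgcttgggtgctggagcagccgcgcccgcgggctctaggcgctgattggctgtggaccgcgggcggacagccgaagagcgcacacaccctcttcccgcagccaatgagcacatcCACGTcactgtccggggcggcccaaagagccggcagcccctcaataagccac
Hk1 promoter: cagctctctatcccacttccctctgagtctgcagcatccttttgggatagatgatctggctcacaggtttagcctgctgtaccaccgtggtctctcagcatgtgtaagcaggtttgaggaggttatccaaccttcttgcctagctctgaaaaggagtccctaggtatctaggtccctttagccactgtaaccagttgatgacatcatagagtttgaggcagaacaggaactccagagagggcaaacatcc
Ldha promoter: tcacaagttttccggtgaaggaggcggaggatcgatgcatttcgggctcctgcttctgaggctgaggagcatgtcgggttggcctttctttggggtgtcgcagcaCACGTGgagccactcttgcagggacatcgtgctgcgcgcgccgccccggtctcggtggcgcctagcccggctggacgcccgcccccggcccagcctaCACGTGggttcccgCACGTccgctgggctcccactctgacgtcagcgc
Ldhb promoter: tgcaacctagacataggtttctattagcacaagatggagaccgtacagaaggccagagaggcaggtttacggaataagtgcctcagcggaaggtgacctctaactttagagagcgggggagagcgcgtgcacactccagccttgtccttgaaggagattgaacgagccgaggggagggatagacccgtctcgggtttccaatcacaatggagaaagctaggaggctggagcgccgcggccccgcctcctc
Slc16a3 promoter: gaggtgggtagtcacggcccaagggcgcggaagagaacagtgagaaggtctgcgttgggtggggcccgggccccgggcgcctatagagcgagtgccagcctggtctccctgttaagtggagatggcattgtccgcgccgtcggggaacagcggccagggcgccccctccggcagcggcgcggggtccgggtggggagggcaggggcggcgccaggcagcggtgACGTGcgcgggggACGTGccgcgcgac
Pdk2 promoter: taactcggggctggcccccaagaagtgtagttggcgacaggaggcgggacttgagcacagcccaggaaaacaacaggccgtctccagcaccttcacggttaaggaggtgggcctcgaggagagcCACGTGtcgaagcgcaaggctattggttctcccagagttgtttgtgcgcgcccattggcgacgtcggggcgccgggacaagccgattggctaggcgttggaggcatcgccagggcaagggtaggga
Ldha held 5 matches, among them 2 palindromes, and Hk2 and Slc16a3 held 2 each. Hk1 and Ldhb held no ACGTG in the window used. In the aldolase pair neither Aldoa, which fell, nor Aldoc, which rose, held it, so that pair showed no such contrast. Pdk2, which rose, held 1 palindrome, or 2 matches. For Hk1, Ldha and Pdk2 RefSeq's table lists 2 starts each, and only the first is shown and counted. The 50 bases after the start used for Ldha and Pdk2 were not found in any GENCODE M21 transcript of the gene. The contrast within a pair may thus depend on the start used. Over the 37 genes with a window 15 (40.5%) held the motif, against 16.6% of 27025 genes with a window of the same length. Among the genes called lower 6 of 16 held it, among those called higher 2 of 6 and among those not called 7 of 15. A match of 5 letters is a description of the sequence and not a binding site.

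Pyruvate enters mitochondrial oxidation through the pyruvate dehydrogenase complex, which the Pdk kinases switch off. Pdk2 (chromosome 11, 95026258 to 95041354) read 501, 735 and 316 in EF and 1536, 2265 and 3035 in PDGFA, 4.41-fold above EF on the means (log2 fold change 2.17, SE 0.35, adjusted p = 0.0026). The lowest PDGFA library, that of mouse 62, had more than the highest EF library, and the call held in every alternative run. Pdk1 read 2247, 2268 and 657 in EF and 1185, 1290.0 and 1254 in PDGFA, and the library of mouse 69 alone was low in EF (log2 fold change -0.27, SE 0.45, adjusted p = 0.666). Without EF 69 Pdk1 was called lower (log2 fold change -0.86, adjusted p = 0.00239; 0.00239 to 0.996 over all alternatives), while leaving out EF 62 or EF 68 turned the log2 fold change to 0.03 in either case. Pdha1 (chromosome X, 160122209 to 160138413), the catalytic alpha subunit, read 6129, 8184 and 9347 in EF and 3406, 3471 and 4424 in PDGFA, 2.09-fold below EF on the means (log2 fold change -1.05, SE 0.19, adjusted p = 0.00458). Its partner Pdhb, the beta subunit, read 2219, 2287 and 2793 in EF and 2373, 2229 and 2094 in PDGFA, with overlapping groups (log2 fold change -0.12, SE 0.14, adjusted p = 0.535). Of the exonic length of Pdha1 16.1% overlaps Map3k15. Pcx, pyruvate carboxylase, which feeds pyruvate into the TCA cycle as oxaloacetate, read 3570.1, 5271 and 6396 in EF and 2645, 2735 and 1735 in PDGFA and fell (log2 fold change -1.09, SE 0.26, adjusted p = 0.0143); it was not called when PDGFA 69 was left out (adjusted p then = 0.0517; 0.000628 to 0.0771 over all alternatives).

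In the TCA list, which counts the cytosolic enzymes Idh1 and Mdh1 with those of the mitochondrial cycle, 3 of 7 genes fell (42.9%) and none rose. Among all genes tested 18.0% were lower and 21.8% higher. Cs, citrate synthase, the entry of the cycle, read 13259.7, 20208 and 23041 in EF and 9282, 9103 and 10027 in PDGFA, 1.99-fold below EF on the means (log2 fold change -0.96, SE 0.22, adjusted p = 0.0116), and was not called when PDGFA 68 was left out (adjusted p then = 0.052; 0.000151 to 0.123 over all alternatives). Idh2, the mitochondrial isocitrate dehydrogenase that makes NADPH, read 3119, 4591 and 7067 in EF and 1819.7, 2076 and 2280.2 in PDGFA, 2.39-fold below EF on the means (log2 fold change -1.18, SE 0.28, adjusted p = 0.0134), and was not called when PDGFA 62 was left out (adjusted p then = 0.0501; 0.000254 to 0.0934 over all alternatives). In both genes the 3 EF libraries spread widely and the 3 PDGFA libraries lay close together, below all of them. Idh3a, the catalytic subunit of the NAD-dependent enzyme, read 2683, 4588 and 5937 in EF and 2281, 2192 and 2287 in PDGFA (log2 fold change -0.89, SE 0.27, adjusted p = 0.0343), and its call was lost when EF 68, EF 69 or any 1 of the PDGFA libraries was left out (adjusted p then 0.0689 to 0.101; 0.00116 to 0.207 over all alternatives).

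The other 4 genes of this list were not called. Idh1, the cytosolic NADPH-making form, read 3026, 7802 and 8109 in EF and 7189, 6849 and 6644 in PDGFA (log2 fold change 0.26, SE 0.36, adjusted p = 0.598), and leaving out EF 62 turned the log2 fold change to -0.21. Ogdh, a subunit of the 2-oxoglutarate dehydrogenase complex, read 4471, 7127 and 7841 in EF and 4065, 4203 and 4642 in PDGFA (log2 fold change -0.55, SE 0.22, adjusted p = 0.0813). Mdh1, the cytosolic malate dehydrogenase, read 3155, 6235 and 6855 in EF and 3667, 3639.9 and 3328 in PDGFA (log2 fold change -0.53, adjusted p = 0.171). Mdh2, the mitochondrial form, read 4956, 8500.4 and 9589 in EF and 6062, 5839.9 and 5990.3 in PDGFA (log2 fold change -0.31, adjusted p = 0.345). With every library kept, Ogdh was called lower by DESeq2 (adjusted p = 0.0385) and with quantile, total-read or upper-quartile scaling, but not by edgeR (adjusted p = 0.062). EF 62 stood below EF 68 and EF 69 in all 4 genes. Without it Ogdh, Mdh1 and Mdh2 were called lower, with log2 fold changes of -0.80, -0.88 and -0.60 and adjusted p of 0.00284, 0.00168 and 0.00673 (over all alternatives 0.00284 to 0.375, 0.00168 to 0.564 and 0.00673 to 0.761).

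In the pentose phosphate pathway 1 of 4 genes was called, Taldo1, and a share of 25.0% higher is near the 21.8% of all genes tested. Taldo1, the transaldolase of the non-oxidative arm, read 1506, 2999 and 3067 in EF and 5505, 5759 and 4626 in PDGFA, 2.10-fold above EF on the means without overlap (log2 fold change 1.13, SE 0.28, adjusted p = 0.0155), and was not called when PDGFA 62 or PDGFA 68 was left out (adjusted p then 0.0516 to 0.0592; 0.00152 to 0.0668 over all alternatives). Tkt, the transketolase of the same arm, read 9681, 18745 and 21550.4 in EF and 10341, 8568 and 7421 in PDGFA (log2 fold change -0.86, SE 0.31, adjusted p = 0.0581). Only EF 62 lay within the PDGFA range of Tkt, and without it the gene was called lower (log2 fold change -1.21, adjusted p = 0.00253; 0.00253 to 0.313 over all alternatives). edgeR, with an adjusted p of 0.0429, and DESeq2, with 0.0109, also called it lower, as did quantile, total-read and upper-quartile scaling. G6pdx and Pgd are the NADPH-making dehydrogenases of the oxidative arm. G6pdx read 1534, 2448 and 2926 in EF and 2315, 2304 and 2489.8 in PDGFA. Pgd read 2498, 3810.0 and 4936 in EF and 2940.0, 2898 and 2504 in PDGFA. Their groups overlapped, with log2 fold changes of 0.09 (adjusted p = 0.781) and -0.38 (adjusted p = 0.25). Without EF 62 that of G6pdx was -0.18, and Pgd was called lower (-0.64, adjusted p = 0.0163; 0.0163 to 0.817 over all alternatives).

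Ratios of isozymes within a library do not depend on the scaling between libraries, and 11 were compared. In all 11 the groups did not overlap, but 2 of the ratios share Pfkm, and the pairs were chosen with earlier results known. Ratios of other gene pairs were not computed, so the count of 11 has no background beside it. Among single genes the groups did not overlap in 55.5% of all genes tested. With 3 libraries against 3 each had p = 0.1 in the exact two-sided permutation test, the smallest it can give, and 0.1 after adjustment over the 11; permuting within mice gave 0.25, again the smallest possible. The difference in log2 ratio, PDGFA minus EF, was -3.94 for Hk2 over Hk1, -3.87 for Slc16a3 over Slc16a1 and 3.32 for Ldhb over Ldha. It was 2.55 for Aldoc over Aldoa, 2.49 for Eno2 over Eno1 and -2.43 for Pdk1 over Pdk2. It was -1.44 for Idh2 over Idh1, -1.43 for Pfkp over Pfkm, -1.01 for Pfkl over Pfkm and -0.73 for Pfkfb3 over Pfkfb2. The smallest was 0.22 for Mdh2 over Mdh1. The difference for the hexokinases was -3.35 without PDGFA 69, and that for the lactate transporters was -4.85 without EF 69.

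Divided by exonic length, the same values give the share of each isozyme in its pair. The length is that of all exons of a gene in GENCODE M21 joined. It can exceed the length of the transcripts present, and every share depends on it. Ldhb made up 21.4, 27.4 and 21.4% of the lactate dehydrogenase pair in EF and 68.1, 76.1 and 80.5% in PDGFA, that is, below 50% in every EF library and above it in every PDGFA library. In PDGFA 62 this rests on the exonic lengths used, 1.57 kb for Ldhb and 3.31 kb for Ldha, since the normalized counts there were 3485 and 3445. Aldoc went from 17.5, 23.97 and 13.4% of the aldolase pair to 57.1, 56.8 and 54.1%, above 50% in every PDGFA library. These shares, and the aldolase sum, depend on the length used for Aldoa, 2.91 kb, which is uncertain because 2 genes carry that symbol in GENCODE M21. Hk2 went from 51.4, 33.3 and 48.7% of the hexokinase pair to 8.33, 6.21 and 2.22%. Its share above 50% in EF 62 rests on the lengths, since the normalized counts there were 2345 for Hk2 and 3164 for Hk1. Eno2 stayed the minor enolase, at 4.02, 2.02 and 0.931% in EF and 9.55, 8.48 and 13.0% in PDGFA. Pdk1 went from 64.6, 55.6 and 45.8% of the kinase pair to 23.9, 18.8 and 14.4%. Its share below 50% in EF 69 rests on the lengths too, with normalized counts of 657 for Pdk1 and 316 for Pdk2. Coding sequences within these 5 pairs are 64.3% to 75.1% identical.

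**Figure D3:**
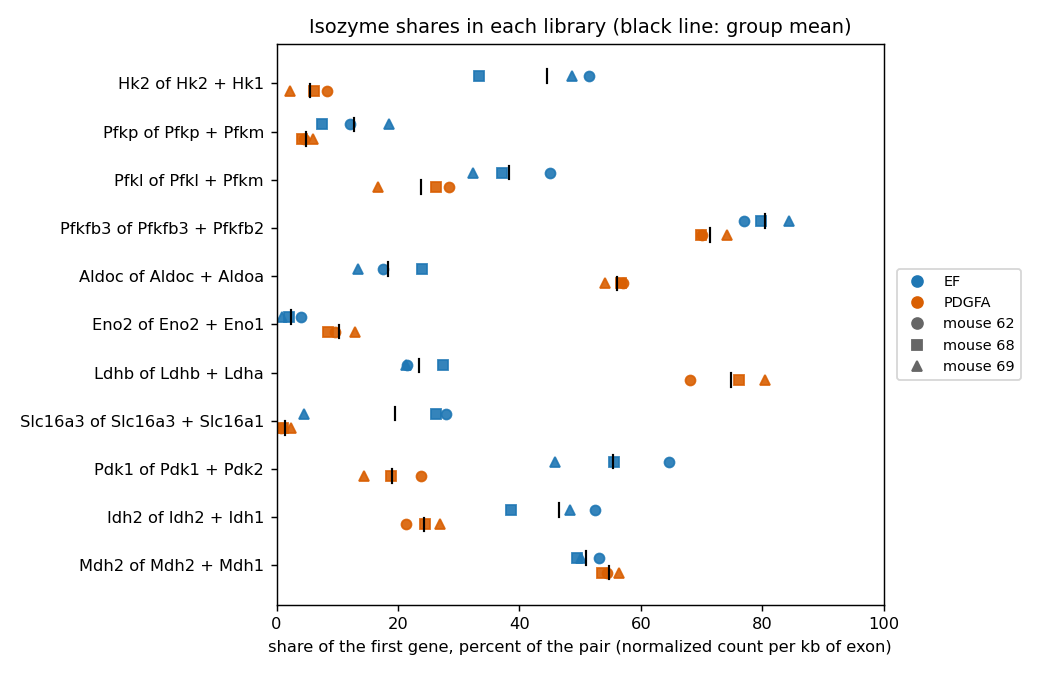
Share of the first named gene in each of 11 isozyme pairs, in percent of normalized count per kb of exon, for each library; blue is EF, orange is PDGFA, symbols mark the mouse and the black line is the group mean. Ldhb and Aldoc lie below 28% in every EF library and above 54% in every PDGFA library.

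The summed level of a family moved less than its members in some pairs. The sums are per kb and depend on the same joined exonic lengths. The hexokinases Hk1 and Hk2 together had 764, 1012 and 938 normalized counts per kb in EF and 864, 795 and 981 in PDGFA, with overlapping groups (exact permutation p = 0.9). The aldolases together had 5703, 9418 and 9430.3 and 8302, 8408 and 9575, again overlapping (exact permutation p = 0.8). For the lactate dehydrogenases the sums were 4483, 6993 and 6889 in EF and 3260.5, 4115 and 5950.1 in PDGFA, with overlap (exact permutation p = 0.2). Enolases did not keep their sum, which went from 1635, 3122 and 3415 to 952, 839.7 and 1045, 2.88-fold lower on the means and without overlap (exact permutation p = 0.1, the smallest possible). The pyruvate dehydrogenase kinases Pdk1 and Pdk2 together had 447, 524 and 184 in EF and 638, 882 and 1121 in PDGFA, 2.29-fold higher on the means and also without overlap (exact permutation p = 0.1). With 3 libraries a group, an overlap does not show that the sums were equal.

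The order of the 38 genes by level per kb also differed between the groups. In EF the highest were Aldoa with 6677 normalized counts per kb, Pkm with 6598 and Ldha with 4672, and the lowest were Pfkfb2 with 59.7 and Eno2 with 53.6. In PDGFA Aldoc came first with 4898, followed by Aldoa with 3863, Pkm with 3625 and Ldhb with 3381. Ldha went from rank 3 to rank 15 and Eno1 from rank 7 to rank 18, while Ldhb went from rank 17 to rank 4 and Taldo1 from rank 19 to rank 6. Slc16a3 was last in PDGFA with 7.80. Aldoa and Pkm were close in both groups, with a difference smaller than the SD of either. The length used for Aldoa is that of the longer of its 2 genes, so its place in this order is less certain. The places of all genes depend on the joined exonic lengths.

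The 38 genes varied more between the mice in EF than in PDGFA. Their median SD on the log2 scale was 0.49 in EF and 0.14 in PDGFA, beside 0.38 and 0.17 for all genes tested, and the SD was over 0.5 in 18 genes in EF and in 4 in PDGFA. EF 62 was the lowest EF library in 30 of the 38 genes (78.9%), where it was the lowest in 42.6% of all genes tested. The exceptions included Pfkfb2 and Pfkfb3, highest in EF 62, and Slc16a3 and Pdk1, lowest in EF 69. The 7 genes of the TCA list, cytosolic Idh1 and Mdh1 included, summed to 34671, 59052 and 68439 normalized counts in EF. In PDGFA they summed to 34365, 33903 and 35199, so the sum of EF 62 was at the PDGFA level and the other EF libraries were above it. Gene by gene, EF 62 was above every PDGFA library for Cs, Idh2 and Idh3a. It was within their range for Ogdh and below them for Idh1, Mdh1 and Mdh2. The 4 pentose phosphate genes summed to 15219, 28002 and 32479.6 in EF and 21101, 19529 and 17041 in PDGFA. The 12 markers of dividing cells had the same order of mice in EF, with sums of 53174, 83624 and 120982, and their part in this order was not tested.

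**Figure D4:**
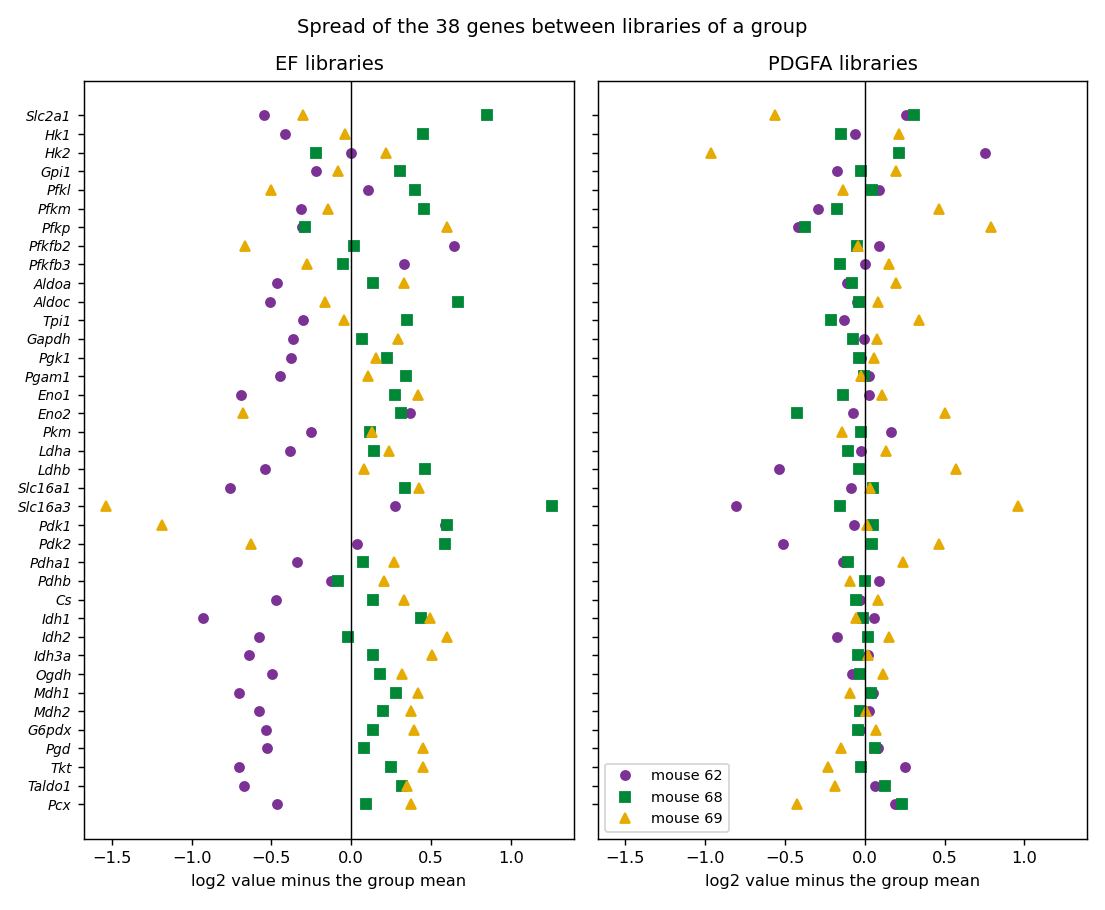
Log2 value of each of the 38 genes minus its group mean, for the EF libraries (left) and the PDGFA libraries (right), with a colour and symbol for each mouse. EF 62 is the lowest EF library in 30 of 38 genes, and the points are closer together in PDGFA, where the median SD is 0.14 against 0.49.

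Other genes of the same pathways went in both directions, and their counts stand beside 21.8% higher and 18.0% lower among all genes tested. Of 13 tested genes of glycolysis outside the 38, 4 rose and 2 fell. Slc16a7, the monocarboxylate transporter MCT2, rose from 103 ± 50.7 to 479.7 ± 28.7 (log2 fold change 2.32, SE 0.34, adjusted p = 0.0016). Fbp1, a gluconeogenic fructose bisphosphatase, rose from 4.01 ± 3.45, with 1 read in its lowest EF library, to 81.9 ± 16.9 (adjusted p = 0.000889). Adpgk, an ADP-dependent glucokinase, fell by 0.96 on the log2 scale (adjusted p = 0.00573). Pfkfb1 fell by 1.41 (adjusted p = 0.0137) and was not called when PDGFA 62 or PDGFA 68 was left out (adjusted p then 0.0606 to 0.0706; 0.00147 to 0.16 over all alternatives).

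Of 10 further genes of the pyruvate dehydrogenase complex, its regulators and the mitochondrial pyruvate carrier, 3 rose and 1 fell. Pdp1, the phosphatase that switches the complex on and so opposes the Pdk kinases, read 236 ± 28.02 in EF and 779.6 ± 184 in PDGFA (log2 fold change 1.697, SE 0.23, adjusted p = 0.00119), and Mpc2, a carrier subunit, 642 ± 72.2 in EF and 1278 ± 79.4 in PDGFA (log2 fold change 0.997, SE 0.15, adjusted p = 0.00181). Dlat, the E2 subunit, fell by 0.78 (adjusted p = 0.0127) and was not called when PDGFA 68 was left out (adjusted p then = 0.0582; 0.000636 to 0.137 over all alternatives). Of 18 other genes of the TCA cycle and its side reactions, 2 rose and 5 fell. Me3, a mitochondrial malic enzyme, rose from 76.3 ± 6.99 to 417 ± 27.1 (log2 fold change 2.44, SE 0.22, adjusted p = 0.000155). Ogdhl rose by 0.87 (adjusted p = 0.0409), a call lost when EF 62, EF 69 or any 1 of the PDGFA libraries was left out (adjusted p then 0.0614 to 0.141; 0.00814 to 0.245 over all alternatives). Idh3g, a partner subunit of Idh3a, fell by 0.70 (adjusted p = 0.00938), a call lost when PDGFA 68 was left out (adjusted p then = 0.0553; 0.000425 to 0.116 over all alternatives). Suclg2 fell by 0.99 (adjusted p = 0.0246), a call lost when EF 68, EF 69, PDGFA 62 or PDGFA 68 was left out (adjusted p then 0.0657 to 0.0869; 0.00274 to 0.192 over all alternatives).

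Of 8 genes of the shuttles that carry NADH into mitochondria, 2 rose and 3 fell. Gpd1, the cytosolic enzyme of the glycerol phosphate shuttle, read 353 ± 215 in EF and 1875 ± 133 in PDGFA (log2 fold change 2.57, SE 0.38, adjusted p = 0.00173), and Gpd1l, its relative, rose by 0.61 (adjusted p = 0.00507). Got1 and Slc25a13, both of the malate-aspartate shuttle, were lower: Got1 fell by 1.37 on the log2 scale (adjusted p = 0.00294) and Slc25a13 fell by 2.43 (adjusted p = 0.00363). The other gene called lower was Gpd2, the mitochondrial enzyme of the glycerol phosphate shuttle, named here after its call was seen. Of 7 other tested genes of the pentose phosphate pathway and ribose phosphate use, 4 fell and none rose. Pgls, the lactonase between the steps of G6pdx and Pgd, read 2790.1 ± 376 in EF and 1589.6 ± 73.0 in PDGFA (log2 fold change -0.80, SE 0.14, adjusted p = 0.00375), and Rpia, the ribose phosphate isomerase, 699 ± 202 in EF and 287 ± 4.87 in PDGFA (log2 fold change -1.24, SE 0.24, adjusted p = 0.00512).

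Of 11 glycogen genes 3 rose (27.3%) and 2 fell (18.2%), near the 21.8% and 18.0% of all genes tested. Pygb, the brain glycogen phosphorylase, read 1969, 2933 and 2081 in EF and 19215, 21771 and 22623 in PDGFA (log2 fold change 3.21, SE 0.18, adjusted p = 2.62e-05), and all PDGFA libraries were far above all EF libraries. Pygm, the muscle isozyme of the same enzyme, read 282, 545 and 184 in EF and 28.01, 31.5 and 79.7 in PDGFA and fell (log2 fold change -2.85, SE 0.53, adjusted p = 0.00473). Ppp1r3c, which targets a phosphatase to glycogen, rose by 1.84 (adjusted p = 0.00124). Pgm1, phosphoglucomutase, fell by 0.65 (adjusted p = 0.036), and lost its call in the fit that blocked on mouse (adjusted p = 0.051) or when EF 68, EF 69 or any 1 of the PDGFA libraries was left out (adjusted p then 0.0531 to 0.124; 0.0118 to 0.273 over all alternatives).

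Of 14 hypoxia-responsive genes outside glycolysis 7 fell and 1 rose, beside 18.0% lower and 21.8% higher among all genes tested. Adm, adrenomedullin, read 1387, 1079 and 1433 in EF and 41.6, 37.2 and 115 in PDGFA (log2 fold change -4.49, SE 0.42, adjusted p = 0.000204), and Egln3, an oxygen-sensing prolyl hydroxylase, 950.0, 1529 and 708 in EF and 311, 324 and 305 in PDGFA (log2 fold change -1.69, SE 0.28, adjusted p = 0.00271). Epas1, which encodes HIF-2 alpha, rose by 1.22 (adjusted p = 0.0298), a call lost when EF 62, EF 69 or any 1 of the PDGFA libraries was left out (adjusted p then 0.0659 to 0.0884; 0.00106 to 0.15 over all alternatives). The 14 genes summed to 39419, 41216 and 26379 in EF, lowest in mouse 69 as for Slc16a3 and Pdk1, and to 30543, 27019 and 23139 in PDGFA. Their relation to the 38 genes was not tested.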

How the data were processed

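The authors deposited 1 table of normalized signal for 22057 genes and 6 libraries, in which each library's read counts are scaled by a size factor of its own. FastQC, STAR and DESeq2 and the build mm10 (GRCm38) are named per the submitters' processing notes; the sources used here give no versions, annotation or strand setting. Libraries were made from 1.3 ug of total RNA with the kit E7770, which does not mark strand, per the labels' protocols. In each library all deposited values were whole multiples of the smallest one above 0 (100% of values, within 0.001), so reads were recovered, 27270246 to 39601349 per library.

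Genes with a mean of at least 10 (17068) entered limma 3.58.1 on the scale log2(normalized count + 1) (mean trend, group as the only term, two-sided, Benjamini-Hochberg over all tested genes, threshold 0.05) in R 4.3.3. This scale understates changes of genes with few reads. edgeR 4.0.16 and DESeq2 1.42.0 on recovered reads, other pseudocounts, filters and scalings, and leaving out libraries were alternatives. Mouse numbers pair the libraries by animal, per the titles; deviations of a mouse's 2 libraries correlated at -0.09, 0.11 and -0.11 for mice 62, 68 and 69, and a fit blocked on mouse was run as an alternative. Isozyme ratios and family sums were tested by exact permutation.

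The 38 genes are named by a rule; from each other pathway list up to 2 higher and 2 lower called genes with the smallest p were named, and Gpd2 besides. Members and lists were chosen with earlier results of these data known. Coordinates and exonic lengths are from GENCODE M21 (GRCm38); copies were searched with BLAST among its transcripts. Protein sequences were not used here.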

Additional observations from a re-analysis of the deposited data

How the results depend on the processing

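Of the 38 genes, the 7 Hk2, Aldoc, Tpi1, Pgk1, Ldha, Slc16a3 and Pdk2 were called in all 21 alternatives, and no called member changed sign. The other 16 calls were lost in at least 1 alternative; with every library kept, only Pfkl (TMM, upper-quartile and quantile scaling) and Pgam1 (mouse as a block) lost theirs. With every library kept, 16 to 20 members were called lower and 6 or 7 higher. With the mouse as a block they were 17 lower and 6 higher, against 17 and 6 without it, and calls changed for Pfkp (gained), Pgam1 (lost) and, outside the 38, Pgm1 (lost). Leaving out 1 library gave 11 to 22 lower and 3 to 6 higher members; leaving out both libraries of mouse 68 gave 5 and 3, and those of mouse 69 gave 12 and 3. Fewer samples enter these fits. Over all genes, calls ran from 2306 to 4213 higher and from 1855 to 3848 lower without 1 library, and were 1945 and 1335 without both libraries of mouse 68. The largest shift of the median of all genes by another scaling was -0.06, with total reads, and no member changed sign with scaling. Signs changed only when libraries were left out, in 6 genes that were not called. Without 1 library the log2 fold change ran from -0.46 to 0.24 for Slc2a1, from -0.58 to 0.0166 for Slc16a1, from -0.86 to 0.0317 for Pdk1, from -0.21 to 0.50 for Idh1 and from -0.18 to 0.29 for G6pdx. Without both libraries of mouse 62 it was 0.0592 for Pdk1, -0.24 for Idh1 and -0.16 for G6pdx; without those of mouse 68 it was 0.0821 for Slc2a1 and 0.00457 for Pdk1, and without those of mouse 69 it was 0.0299 for Pdhb. The cause of these changes was not tested. The isozyme ratios kept their direction with the other pseudocounts and when any 1 library was left out; apart from permuting within mice, no other alternative was run for them.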
